A study of Mus musculus with 8 samples.

Results

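The 5-hydroxymethylcytosine (5hmC) peaks at the mouse Esrrb locus were followed from fibroblasts through 2 methods of reprogramming to induced pluripotent stem cells. The locus was taken as the 200-kb window chr12:87680001-87880000 in mm9 coordinates, and a peak was a member when it shared at least 1 bp with the window. The 8 peak lists held 684512 peaks, of which 31879 lay on chromosome 12 and 85 met the rule. The Esrrb gene spans 160.5 kb in the GRCm38 annotation, so a window of this length can hold the whole gene with some sequence on each side. No annotation of the lists' own build was used here, so that no peak could be called promoter, exonic, intronic or intergenic, and positions are given as they stand in the lists, counted from 1.

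Samples were fibroblasts (MEF), cells at D1, D3 and D5 (D is read as day) of the methods labelled OSNK and OySyNyK, and mouse iPSCs, with 1 library for each. From knowledge of the study, OSNK stands for Oct4, Sox2, Nanog and Klf4, and in OySyNyK the first 3 of them carry a transactivation domain of YAP. The fibroblasts were OG2-MEFs, known as cells with an Oct4-GFP reporter, and medium for making iPSCs had vitamin C and LIF added. The iPSC library is a single one whose title carries the OySyNyK factors (SyKOyNyiPS2), and these cells were kept on mitomycin C-treated MEF feeders. Whether feeder DNA entered that library was not tested. Each intermediate is a whole culture, in which fewer cells with 5hmC at a site and less 5hmC per cell cannot be told apart. With no replicate in any group there is no test and no p-value, and differences below are between single libraries.

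Esrrb encodes an orphan nuclear receptor of the oestrogen-related receptor family that binds DNA as a transcription factor. It belongs to the network that maintains naive pluripotency, is a target of Nanog, and is silent in fibroblasts. 5hmC is made from 5-methylcytosine by the TET enzymes and is often found at enhancers and within the bodies of active genes. Earlier work on fibroblast reprogramming described TET2 acting at the Nanog and Esrrb loci at an early stage.

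The window was sparsely marked in MEF, almost without peaks at D3 and D5 of OSNK, marked at more sites at D3 and D5 of OySyNyK, and densely marked in iPSC. MEF had 5 peaks in it, covering 4718 bp or 2.36% of the window. With OSNK there were 5 peaks at D1, a single one at D3 and 2 at D5, over 3994, 602 and 990 bp in turn (2.00%, 0.301% and 0.495%). With OySyNyK there were 7 at D1 and 14 each at D3 and D5, over 7488, 12750 and 10543 bp (3.74%, 6.38% and 5.27%). By the score that the authors gave each peak, many of those at D3 and D5 were weak. The median at the locus was 76.7 and 59.9 on these days, below the 84.2 and 75.8 of their lists. OySyNyK peaks with a score of at least 100 numbered 5, 4 and 2 at D1, D3 and D5. The iPSC library had 37 peaks covering 32129 bp, which is 16.1% of the window. In order of cover the libraries ran from OSNK D3 through OSNK D5, OSNK D1, MEF, OySyNyK D1, OySyNyK D5 and OySyNyK D3 to iPSC. Without replicates it cannot be said which neighbours in that order differ beyond the spread between cultures.

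The lists differ in length, from 54938 peaks in iPSC to 116302 at OSNK D1, and the order at the locus was not that of the lists. Over the 200-kb windows of chromosome 12 with a peak in at least 1 library, mean cover lay between 2.46% at OySyNyK D5 and 4.22% at OSNK D3. The 102 windows without a peak were left out, which raises this mean in every library. OSNK D3, with the highest mean cover of these windows, thus had the lowest cover of the Esrrb window. In MEF the cover of the Esrrb window was 0.844 times that mean. The ratio was 0.508, 0.0713 and 0.162 over the days of OSNK and 1.14, 2.07 and 2.15 over those of OySyNyK. In iPSC it was 4.84.

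The window was then set beside the rest of its chromosome, cut end to end into 605 windows of 200 kb so that the Esrrb window was 1 of them. Of the others, 502 held a peak in at least 1 library and were compared. In MEF, 176 of the 502 had more cover than the Esrrb window (35.1%), and the median of the 502 was 1.38%. With OSNK, 265 windows had more at D1, 376 at D3 and 323 at D5 (52.8%, 74.9% and 64.3%). With OySyNyK, 157, 79 and 72 had more (31.3%, 15.7% and 14.3%). In iPSC only 19 had more (3.78%), against a median of 1.10%. By number of peaks, 11 of the 502 windows held more than the 37 iPSC peaks at Esrrb.

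**Figure D1:**
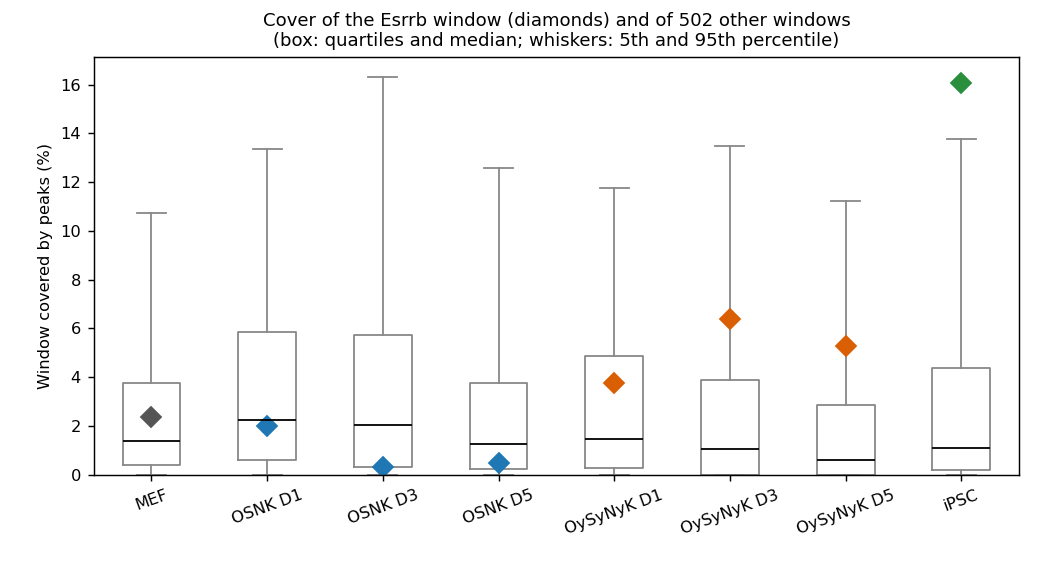
Share of the 200-kb Esrrb window covered by 5hmC peaks in each of the 8 libraries (diamonds, in percent), with boxes for the 502 other windows of chromosome 12 that held a peak. The diamond lies above the 95th percentile of the windows in iPSC, at 16.1%, near the lower edge of the box at OSNK D3 and D5, at 0.301% and 0.495%, and above the box at OySyNyK D3 and D5.

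Peaks in fibroblasts were confined to the first 64 kb of the window. The 3 strongest stood close together. They were chr12:87735937-87737339 with a score of 358, chr12:87739535-87740406 with 170 and chr12:87742702-87743639 with 142. The score is the authors' value for each peak, which in the peak caller MACS grows as the p-value falls. It is used here to rank peaks within a list and, in an alternative setting, for a cut at 100 in every list. The median score of a list ran from 71.0 in iPSC to 104.5 at OSNK D1, so that cut keeps unlike shares of the lists. The first of these peaks outranked 90.4% of all MEF peaks. The other 2 MEF peaks were weaker, at chr12:87700007-87700800 (794 bp, score 69.1) and chr12:87729473-87730183 (711 bp, score 52.2).

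This group of 3 fibroblast sites was found again at D1 of both methods, and among the later intermediates only with OySyNyK. Peaks of all libraries that shared at least 1 bp were joined into regions for this purpose. The region chr12:87735636-87737411 had a peak in MEF, at OSNK D1 and at all 3 days of OySyNyK, and none in iPSC. The next, chr12:87739414-87740908, had peaks in the same 5 libraries and also in iPSC, where it was a weak one at chr12:87740323-87740908 (586 bp, score 52.9). The last of the group, chr12:87742642-87743639, had a peak in MEF, at D1 of both methods and at OySyNyK D3. At OSNK D3 and D5 none of these regions had a peak. Within the OySyNyK lists the first of them outranked 82%, 48.1% and 87.5% of all peaks at D1, D3 and D5.

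Of the MEF-covered bases of the window, OSNK covered 53.6% at D1 and 0% at D3 and D5. Over the rest of chromosome 12 it covered 62.6%, 47.5% and 33.1% of the MEF-covered bases on these days. OySyNyK covered 62.1%, 38.3% and 32.6% at the locus, against 58.8%, 41.7% and 29.7% over the rest of the chromosome. The OSNK values at D3 and D5 rest on 5 MEF peaks. Counted by peaks and not by bases, 0 of 5 were overlapped on either day, against 50.6% and 42.1% in the rest of chromosome 12. The exact (Clopper-Pearson) 95% interval of 0 of 5 is 0% to 52.2%, which takes the peaks as independent and covers counting error only.

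**Figure D2:**
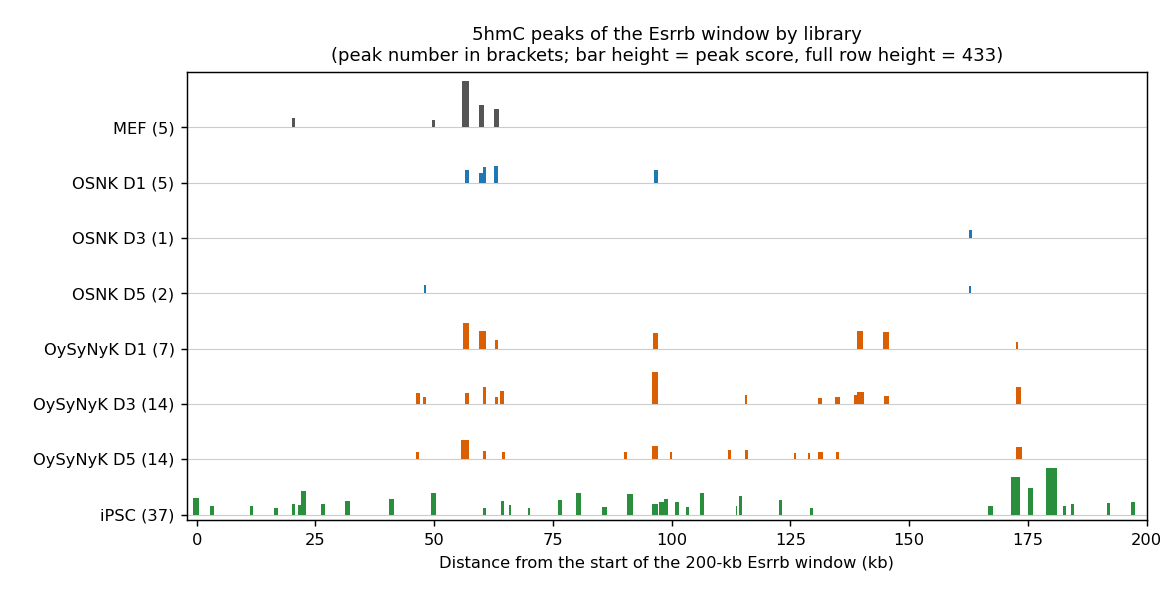
Every 5hmC peak of the Esrrb window, by distance from its start (kb), with 1 row per library, bar width to scale and bar height giving the peak's score. Peaks near 55 to 64 kb are present in MEF, at D1 of both methods and with OySyNyK at D3 and D5, the single OSNK D3 peak lies at 163 kb, and the 37 iPSC peaks span the window except for a gap from 130 to 167 kb.

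Peaks of the iPSC library ran through nearly the whole window, with a median gap of 3441 bp between neighbours. They were 260 to 2452 bp wide with a median of 811 bp. Their median score was 99.5, against 71.0 for all iPSC peaks, and 18 of the 37 had a score of at least 100. The strongest and widest was chr12:87858786-87861237, with 2452 bp and a score of 368, above 99.3% of all iPSC peaks. No other library had a peak there. Beside it stood chr12:87851470-87853372 (1903 bp, score 292) and chr12:87855125-87856184 (1060 bp, score 210), which outranked 98.7% and 96.6% of iPSC peaks. These 3 lay within 10 kb of each other, between 171 and 181 kb from the start of the window, and of them only the one with a score of 292 overlapped peaks of other libraries, those of OySyNyK at all 3 days.

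Near the start of the window the strongest iPSC peak was chr12:87701989-87702991, with a score of 186, above 95.2% of the list. Its neighbour chr12:87701392-87701983 (592 bp, score 72.1) ended only a few bases before it, and chr12:87700112-87700762 (651 bp, score 80.1) lay over the weak MEF peak named above. The first member, chr12:87679320-87680429 (1110 bp, score 129), crossed the start of the window, with 681 bp outside it. It was followed by chr12:87682883-87683569 (687 bp, score 66.2), chr12:87691139-87691791 (653 bp, score 66.2) and chr12:87696349-87697051 (703 bp, score 52.5). Further on came chr12:87706209-87707057 (849 bp, score 82.7), chr12:87711329-87712322 (994 bp, score 107) and chr12:87720472-87721543 (1072 bp, score 121). None of these last 7 was overlapped by a peak of another library, nor were the peaks with scores of 186 and 72.1. The peak chr12:87729397-87730420 (1024 bp, score 168) lay over the other weak MEF peak and outranked 93.7% of iPSC peaks.

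The middle of the window held the densest run. After chr12:87743997-87744750 (754 bp, score 111) came chr12:87745691-87746148 (458 bp, score 78.2), chr12:87749814-87750269 (456 bp, score 51.8), chr12:87756103-87756891 (789 bp, score 115) and chr12:87759781-87760995 (1215 bp, score 172). Then followed chr12:87765325-87766377 (1053 bp, score 63.1) and chr12:87770655-87771828 (1174 bp, score 162). The peaks chr12:87775865-87777191 (1327 bp, score 86.2), chr12:87777338-87778314 (977 bp, score 99.5) and chr12:87778486-87779327 (842 bp, score 119) stood side by side, and the 20 kb that hold them, from 80 to 100 kb, were the part with the highest iPSC cover, 31.8%. Beyond these lay chr12:87780636-87781446 (811 bp, score 101), chr12:87783092-87783726 (635 bp, score 61.3) and chr12:87786017-87786830 (814 bp, score 169). The next were chr12:87793503-87793762 (260 bp, score 65.1), chr12:87794118-87794900 (783 bp, score 143), chr12:87802535-87803141 (607 bp, score 118) and chr12:87809162-87809691 (530 bp, score 55.6). After the last of these no iPSC peak was called over 36839 bp, from 87809692 to 87846530. The run past this gap began with chr12:87846531-87847617 (1087 bp, score 69.4). It ended, after the strong group described above, with chr12:87862354-87863033 (680 bp, score 66.5), chr12:87864146-87864811 (666 bp, score 85.3), chr12:87871576-87872277 (702 bp, score 94.8) and chr12:87876774-87877624 (851 bp, score 103).

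Cover of the window was 6.81 times as high in iPSC as in MEF, a difference of 13.7 percentage points. Cover at least 2 times as high in iPSC was seen in 25.3% of the other windows, and a larger difference in 7 of 502. The comparison with windows of the same chromosome was set by the rule for the locus. Chromosome 12 held 4435 of the 54938 iPSC peaks but 2949 of the 65776 MEF peaks. Against D5 of the intermediates, iPSC cover was 3.05 times that of OySyNyK and 32.5 times that of OSNK. Ratios of at least 2 were seen in 32.3% and 25.3% of the other windows. None of the 502 had a larger excess of iPSC over OSNK D5 than the 15.6 points at Esrrb, and 3 had a larger excess over OySyNyK D5 than its 10.8 points.

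All libraries together gave 52 regions at the locus. Of these, 37 were present in iPSC (71.2%, against 38.8% of the 10800 regions in the rest of chromosome 12), and 34 were present in iPSC and absent in MEF (65.4% against 31.1%). Found in iPSC alone were 31 (59.6% against 20.1%). So of the 34 regions in iPSC and not MEF, 31 were in no intermediate, 3 were in an OySyNyK intermediate and 1 of these was also in an OSNK intermediate. In the rest of the chromosome 64.7% of such regions were in no intermediate, 29.5% in an OySyNyK and 23.7% in an OSNK intermediate. These differences between the locus and the chromosome were not tested.

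The 3 regions that joined OySyNyK intermediates to iPSC without MEF are described in turn. The first, chr12:87743810-87744880, lies beside the fibroblast group and had peaks at OySyNyK D3, OySyNyK D5 and in iPSC. The second, chr12:87775865-87777201, had peaks at D1 of both methods, at D3 and D5 of OySyNyK and in iPSC. It was the strongest peak of the window at OySyNyK D3, chr12:87775895-87777201 (1307 bp, score 249), above 93.5% of that list, and stood above 64.2% of the list at D1 and 72.7% at D5. With OSNK it was called at D1 only, as chr12:87776208-87777039 (832 bp, score 93.8). The third, chr12:87851470-87853669, had a narrow peak at OySyNyK D1 (417 bp, score 51.9), wider ones at D3 (1119 bp, score 131) and D5 (1221 bp, score 98.7), and the second strongest iPSC peak of the locus. No OSNK library had a peak there.

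OySyNyK also had peaks at the locus in neither MEF nor iPSC. There were 11 regions of this kind without an OSNK peak (21.2% of the 52, against 9.25% of regions in the rest of chromosome 12). Another was shared with OSNK (1.92% against 15.7%), and 1 was with OSNK alone (1.92% against 18.2%). The widest was chr12:87818430-87820548, with peaks at OySyNyK D1 (chr12:87818947-87820342 (1396 bp, score 136)) and D3 (chr12:87818430-87819054 (625 bp, score 71.3) and chr12:87819081-87820548 (1468 bp, score 91.2)). Together with chr12:87824605-87825706, seen on the same 2 days, it lay in the gap between the iPSC peaks. In that gap OySyNyK covered 2459, 5028 and 1629 bp at D1, D3 and D5. OSNK covered 0, 602 and 509 bp there and MEF covered 0 bp. At D5 the peaks over these 2 regions were gone from the OySyNyK list, while chr12:87810775-87811776 and chr12:87814406-87815369, also in the gap, had peaks at D3 and D5 with scores of 50.0 to 60.4, close to the lowest score of 50 in the lists.

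Of the remaining OySyNyK regions of this kind, 2 were called at both D3 and D5. In chr12:87795376-87796035 the scores were 68.5 and 71.9. In chr12:87726227-87727032 they were 85 and 53.7, the former above 50.7% of the D3 list. Those called at D5 alone were chr12:87770005-87770579 (575 bp, score 54.3), chr12:87779631-87780005 (375 bp, score 59.4), chr12:87791872-87792426 (555 bp, score 71), chr12:87805707-87806113 (407 bp, score 51.4) and chr12:87808681-87809107 (427 bp, score 51.2). Of the 14 peaks at OySyNyK D5, 4 overlapped an iPSC peak, and of the other 10, 4 lay within 1 kb of one, the nearest at 54 bp. At OySyNyK D3, 4 of 14 overlapped one and 2 of the other 10 lay within 1 kb. The iPSC peaks of the window had a median gap of 3441 bp. No count within 1 kb was made for the rest of the chromosome, so whether these counts are high is unknown. The overlapped share was thus 28.6% on both days, against 46.4% of OySyNyK D5 peaks and 33.5% of D3 peaks in the rest of chromosome 12.

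From D1 to D3 all 7 OySyNyK peaks of the window were found again, in 8 of the 14 D3 peaks, and 9 of the 14 D3 peaks were overlapped at D5. In the rest of chromosome 12, 59.0% of D1 peaks were overlapped at D3 and 53.7% of D3 peaks at D5. For OSNK, 0 of the 5 D1 peaks were overlapped at D3 or D5 (exact 95% interval 0% to 52.2%). In the rest of the chromosome 58.4% and 47.1% were overlapped. That interval covers counting error only and takes the 5 peaks of 1 library as independent, though most of them stood close together. All 5 OSNK D1 peaks overlapped OySyNyK D1 peaks, against 64.2% in the rest of the chromosome. Of the OSNK bases at D1, 96.1% were shared with OySyNyK (59.6% in the rest), and these made up 51.3% of the OySyNyK bases (71.6% in the rest). The methods shared 0 bp at D3 and at D5, where 47.1% and 44.3% of the OSNK bases in the rest of the chromosome were shared, but the locus had only 1 and 2 OSNK peaks on these days.

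What was left with OSNK was 1 region of its own, chr12:87842537-87843138, with chr12:87842537-87843138 (602 bp, score 64) at D3 and chr12:87842557-87843065 (509 bp, score 59.3) at D5. No other library had a peak there. The other OSNK D5 peak, chr12:87727762-87728242 (481 bp, score 66.7), overlapped one at OySyNyK D3, chr12:87727583-87728353 (771 bp, score 53.6). These 3 OSNK peaks ranked low, above 22.9%, 21.1% and 33.2% of their lists.

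**Figure D3:**
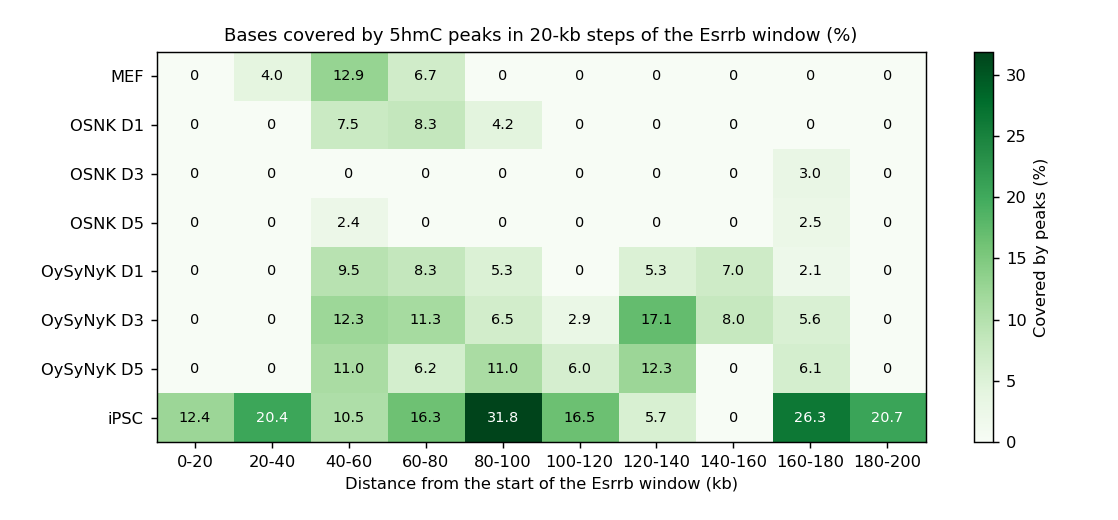
Bases covered by 5hmC peaks (percent) in 10 steps of 20 kb along the Esrrb window, by library. OSNK D3 and D5 are at 0 in all but 1 and 2 steps, OySyNyK D3 has its highest cover from 120 to 140 kb (17.1%), and iPSC from 80 to 100 kb (31.8%), with 0 in every library but OySyNyK D1 and D3 from 140 to 160 kb.

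Set against MEF, every OSNK library had less cover of the window and every OySyNyK library had more. OSNK differed from MEF by -0.362, -2.06 and -1.86 percentage points at D1, D3 and D5. Less cover with OSNK than in MEF was seen in 100, 161 and 244 of the 502 other windows. At D3 and D5 MEF cover was at least 2 times that of OSNK, which was so in 17.5% and 26.9% of the other windows. From D1 to D3 of OSNK cover went down to 0.151 times its value, and cover at least 2 times as low at D3 as at D1 was seen in 23.9% of the other windows. OySyNyK differed from MEF by 1.39, 4.02 and 2.91 points, with ratios of 2.70 at D3 and 2.23 at D5. More cover with OySyNyK than in MEF was seen in 247, 178 and 125 of the 502 other windows. Ratios of at least 2 were seen in 14.1% and 10.8% of the other windows. With peaks of a score of at least 100 only, the OySyNyK difference was 1.54, 0.367 and -0.145 points, so it was larger at D1 and smaller at D3, and the sign at D5 turned, and the change from D1 to D5 of OySyNyK was -1.68 in place of 1.53 points. With every peak set to 500 bp round its midpoint, OSNK D1 and MEF covered equal lengths, a difference of 0.

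On the same day, the window had more cover with OySyNyK than with OSNK. OySyNyK exceeded OSNK by 1.75 points at D1, 6.07 at D3 and 4.78 at D5. In the median other window OySyNyK lay below OSNK on each day, by -0.450, -0.445 and -0.249 points. A larger excess than at Esrrb was found in 16, 1 and 2 of the 502 windows (3.19%, 0.199% and 0.398%). Over the alternative settings this share ranged from 0.461% to 9.36% at D1, from 0.210% to 2.07% at D3 and from 0.199% to 3.36% at D5, so the place of the window in this order depends on the setting. Cover at D1 was 1.87 times as high with OySyNyK, short of 2, which 1.59% of the other windows reached. At D3 and D5 it was 21.2 and 10.6 times as high, and ratios of at least 2 were seen in 5.98% and 4.78% of the other windows on these days and on both days in 1.99%. The ratios at Esrrb rest on 1 and 2 OSNK peaks. By regions, 13 of 52 had a peak in an OySyNyK and no OSNK intermediate (25.0%, against 14.6% in the rest of chromosome 12), and 1 had one in an OSNK and no OySyNyK intermediate (1.92% against 22.2%). When peaks scoring under 100 were left out, the methods differed by 2.43, 1.97 and 1.46 points, with OSNK at 0 bp at D3 and D5, and 2.07% and 1.84% of the other windows had a larger one at D3 and D5.

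**Figure D4:**
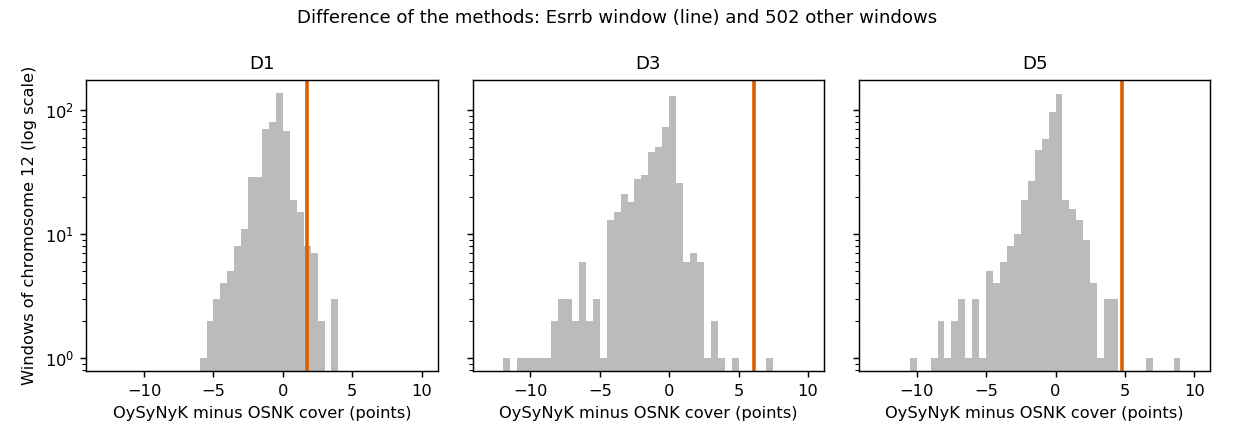
OySyNyK minus OSNK cover (percentage points) at D1, D3 and D5 in the Esrrb window (line) and in the 502 other windows of chromosome 12 (grey bars, number of windows on a log scale). The line stands at 1.75, 6.07 and 4.78 points, with 16, 1 and 2 windows to its right.

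How much of the iPSC pattern each library already held was measured as the share of the 32129 iPSC-covered bases under its own peaks. MEF peaks held 4.50% of them. OSNK held 4.25% at D1 and 0% on both later days, and OySyNyK held 6.31%, 10.8% and 9.98% at D1, D3 and D5. Over the rest of chromosome 12 it was 18.7% in MEF, 18.6%, 25.7% and 24.4% with OSNK and 21.1%, 27.4% and 31.2% with OySyNyK. The share at the locus was thus below that of the chromosome in all 7 libraries, and with OSNK it was 0 where that of the chromosome was higher at D3 and D5 than at D1. Among the 258 other windows with at least 2000 iPSC-covered bases, 222 had a higher share than 0 at OSNK D3 and 218 at OSNK D5. At OySyNyK D3 and D5, 179 and 207 had a higher share than Esrrb. In peaks, 4 of the 37 iPSC peaks were overlapped at OySyNyK D5 (10.8%, exact 95% interval 3.03% to 25.4%) and 0 at OSNK D5 (interval 0% to 9.49%), against 32.5% and 28.3% of the other iPSC peaks of the chromosome. These intervals cover counting error only. With a score of at least 100, OySyNyK D5 overlapped 0 of the 18 iPSC peaks left and OySyNyK D3 overlapped 2.

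The windows on either side had less iPSC cover and smaller differences between the methods. In the window before (chr12:87480001-87680000) iPSC cover was 10.4% and MEF cover 0.418%. There OSNK had 0.840%, 2.44% and 3.44% at D1, D3 and D5 and OySyNyK 1.27%, 1.89% and 1.80%, so that OSNK exceeded OySyNyK at D3 and D5. In the window after (chr12:87880001-88080000) iPSC cover was 8.18% and MEF cover 1.62%. OSNK had 1.43%, 2.12% and 0.958% there and OySyNyK 2.34%, 1.72% and 2.76%. The iPSC excess over MEF thus extended to both neighbours, at smaller size, while the next windows out, starting at 87280001 and 88080001, had more cover in MEF (16.2% and 11.1%) than in iPSC (11.1% and 8.92%).

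**Figure D5:**
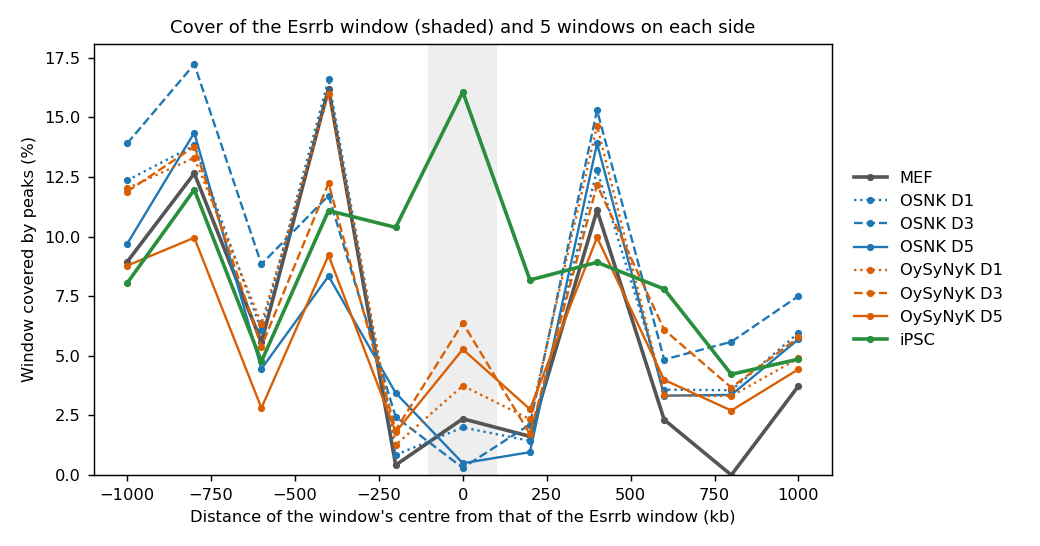
Cover by 5hmC peaks (percent) in the Esrrb window (shaded) and the 5 windows of 200 kb on each side, for all 8 libraries, by distance from the centre of the Esrrb window (kb). In iPSC the Esrrb window is the highest of the 11, at 16.1%, while at OSNK D3 and D5 it is the lowest, at 0.301% and 0.495%.

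Other windows of the chromosome with a like profile were sought by the correlation of their cover over the 8 libraries with that of the Esrrb window. Each library was scaled to its mean over the chromosome's windows with a peak. Of 283 windows covered in all libraries, those most alike were chr12:77280001-77480000 (Pearson's r = 0.985), chr12:105680001-105880000 (r = 0.985) and chr12:85880001-86080000 (r = 0.959). They were followed by chr12:104480001-104680000 (r = 0.958) and chr12:84680001-84880000 (r = 0.950). These values describe 8 points that share libraries and depth, with iPSC far above the rest, and have no p. In the third, iPSC cover was 14.1% against 1.21% in MEF, with 0.912% and 0.837% at OSNK D3 and D5 and 2.76% and 3.06% at OySyNyK D3 and D5. In the fourth, OSNK had 1.06% and 0.977% on those days, OySyNyK 5.05% and 3.02%, and iPSC 8.06%. In the first, OSNK stayed near MEF at 3.83% to 4.21%. In the second and the fifth, OSNK cover at D3 and D5 was above that of MEF, at 3.23% and 2.26% against 2.10% and at 2.52% and 2.79% against 1.29%. A high correlation thus did not require the low OSNK values seen at Esrrb. Windows without OSNK cover at D3 or D5 could not appear here, since only windows covered in all libraries were searched.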

How the data were processed

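Peak lists of 5hmC capture sequencing from 8 mouse libraries were used, 1 per group; titles and the cell type label gave the groups. Per the labels' protocols, 5hmC in sheared DNA was tagged with an azide-bearing glucose, then biotin, and captured. Reads were processed with Bowtie and MACS, per the submitters' processing notes, with versions and settings not given in the sources used here. Peaks were called per library, each with a deposited score from the authors of 50 or more, and depth is unknown. Those notes name human builds, hg18 and NCBI36. On chromosome 12, 45 peaks lie beyond its last gene in mouse GRCm38, which bears on the mouse build and does not decide against a human one. The lists were taken as mm9 from general knowledge of chromosome lengths, and the given mm9 position of Esrrb was not checked against an annotation.

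Cover is the share of a window's bases under peaks. The locus was set beside every 200-kb window of chromosome 12 holding a peak, not a draw of them. By rule, iPSC regions, regions in 4 or more libraries, the widest 5 regions and the 5 windows most alike were described; the locus and this rule were chosen with earlier results of these data known, and other single peaks after their values were seen. No pluripotency gene list was placed without an annotation. Python 3.11.15, numpy 2.4.6, pandas 2.3.3, scipy 1.17.1 and matplotlib 3.10.9 were used, and interval functions were tested on simulated data. Among the alternatives in the closing section, best-scoring peaks were kept to 54938 per list or, added after seeing the data, 2949 per list on chromosome 12, and a shorter window lost 20 kb at each end.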

Additional observations from a re-analysis of the deposited data

Results flagged for a closer look

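Cover of the Esrrb window lay below MEF with OSNK and above MEF with OySyNyK on each day, with 1 library a day and no test of the difference. OSNK differed from MEF by -0.362, -2.06 and -1.86 percentage points at D1, D3 and D5, and OySyNyK by 1.39, 4.02 and 2.91. From D1 to D5 the change was -1.50 points with OSNK and 1.53 with OySyNyK. With a score of at least 100, OySyNyK D5 was -0.145 points from MEF and -1.68 from D1, so both OySyNyK signs turned there. That cut keeps unlike shares of the lists. Their median scores were 103 in MEF, 95.8 at OySyNyK D1 and 75.8 at OySyNyK D5. With 500 bp round each midpoint, OSNK D1 minus MEF was 0, so that OSNK had no direction at D1.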

How the results depend on the processing

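Of 259 values recomputed under an alternative, 159 kept their direction and stayed within 1.5 times the main value, 98 moved by more and 2 changed sign. Some of the 159 could not change. Equal numbers of peaks leave iPSC, the shortest list, as it was, and scaling cannot move the window's rank by iPSC cover. The 0% shares of iPSC-covered bases at OSNK D3 and D5 cannot rise when peaks are only left out. The excess of iPSC over MEF and of OySyNyK over OSNK kept its sign on every day under every alternative run. No paired analysis was possible because each group has 1 library. Read depth limits all peak numbers and is unknown.

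With a score of at least 100, MEF had 3 peaks and iPSC 18 (18577 bp). OSNK had 2, 0 and 0 (1424, 0 and 0 bp) at D1, D3 and D5, and OySyNyK 5, 4 and 2 (6291, 3946 and 2923 bp). iPSC minus MEF was 7.68 points and OySyNyK minus OSNK 1.97 and 1.46 at D3 and D5. OSNK D1 minus MEF was -0.895, OSNK D5 minus D1 -0.712, OySyNyK D3 minus MEF 0.367, OySyNyK D5 minus MEF -0.145 and OySyNyK D5 minus D1 -1.68. MEF, OSNK D1, OySyNyK D1 and OySyNyK D5 covered 0% of the iPSC-covered bases and overlapped 0 iPSC peaks, and OySyNyK D3 overlapped 2. Of 24 regions, 16 were in iPSC only, 18 in iPSC and not MEF, and 6 with OySyNyK and not OSNK. Larger differences between the methods were found in 0.461%, 2.07% and 1.84% of the other windows at D1, D3 and D5.

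With equal numbers of peaks, OSNK had 2, 0 and 0 peaks (1424, 0 and 0 bp) and OySyNyK D3 and D5 had 7 and 8 (7097 and 6926 bp). OySyNyK minus OSNK at D3 was 3.55 points, OSNK D1 minus MEF -1.29, OSNK D5 minus D1 -0.712, OySyNyK D3 and D5 minus MEF 1.55 and 1.46, and OySyNyK D5 minus D1 0.318. MEF and OSNK D1 covered 2.29% and 1.66% of the iPSC-covered bases, and 2.10% and 3.36% of the other windows had a larger method difference at D1 and D5. With equal numbers on chromosome 12, OSNK D3 and D5 had 0 and 1 peaks (0 and 481 bp) and OySyNyK D3 had 9 (8294 bp). OSNK D1 minus MEF was -0.775 points, OySyNyK D1 and D3 minus MEF 0.787 and 1.79, and OySyNyK D1 covered 3.76% of the iPSC-covered bases. The shares of windows with a larger method difference were 6.04%, 0.417% and 0.833%.

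With 500 bp round the midpoints, which shortens most peaks, MEF and OSNK D1 covered 2500 bp each, OySyNyK 3500, 7000 and 7000 bp and iPSC 18124 bp. iPSC minus MEF was 7.81 points, OySyNyK minus OSNK 0.50, 3.25 and 3 points, OSNK minus MEF 0, -1 and -0.75, OSNK D5 minus D1 -0.75, and OySyNyK D1 and D3 minus MEF 0.50 and 2.25. OySyNyK D1 covered 3.32% of the iPSC-covered bases, and the shares of windows were 9.36%, 1.20% and 0.199%. Cover was also scaled to each library's mean over the windows of chromosome 12 with a peak. OSNK D1 minus MEF was then -1.10 and OySyNyK D5 minus D1 3.28 points, and the shares were 7.37%, 0.598% and 1.79%. Among windows of all autosomes, 0.732% had more iPSC cover, 0.154% a larger excess of iPSC over MEF and 1.09% a larger method difference at D5. With windows shifted by 100 kb, the shares at D3 and D5 were 0.402% and 0.805%. The cause of these moves was not tested. A shorter window, joining within 1 kb and an overlap of 50% moved no value by more than 1.5 times.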
